A study of Mus musculus with 6 samples.

Results

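Transcripts of 10 genes that mark T cells, B cells and natural killer (NK) cells were measured in the proximal stump of the mouse sciatic nerve after axotomy. The genes were taken from a list of names: 6 T cell genes (Cd3d, Cd3e, Cd3g, Cd4, Cd8a and Foxp3), 2 B cell genes (Cd79a and Ms4a1) and 2 genes of NK and other cytotoxic cells (Nkg7 and Il2rb). All 10 were found among the 52999 gene symbols of the files and all 10 passed the filter on low counts, which kept 18396 genes.

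The left sciatic nerve of female and male C57BL/6 mice, 6 to 8 weeks old, was cut at the mid-thigh, and the end that stays joined to the dorsal root ganglion was collected 24 h later. Each library was made from the whole nerve tissue of 2 pooled mice, and 3 libraries per sex were compared. The series asks which transcripts differ between the sexes after axotomy. All 6 libraries came from axotomized nerves. Sham nerves were not analysed here, and the values describe injured nerve rather than a response to injury.

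Lymphocytes are the cells of adaptive immunity together with the innate NK cells. A T cell recognises antigen through a receptor that signals through the CD3 chains, and its coreceptor CD4 or CD8 binds the molecule that presents the antigen. A B cell uses membrane immunoglobulin with the CD79 chains, while NK cells kill through granules and depend on interleukin-15. In a cut nerve the early infiltrate is known mainly for neutrophils and macrophages, and T cells are known to follow later.

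Library totals were 49158283 to 69848769 estimated counts. Genes expressed from the Y chromosome separated the sexes, but the library labelled female 3 contained Ddx3y (139 counts) and Eif2s3y (147 counts), both at 0 in females 1 and 2. The members, their median, the Cd8a to Cd4 ratio and the number of genes called are therefore also given without female 3. Values of all other genes and lists include it. Xist, a transcript of the inactive X chromosome, had 193 counts in male 1, 6 in male 2 and 16 in male 3, against 26310 to 40851 in the females. Of 18396 genes, 975 (5.3%) passed the threshold for a sex difference, a Benjamini-Hochberg adjusted p below 0.1 by the quasi-likelihood test of edgeR, 706 higher in males and 269 higher in females. All 6 genes of a list for central glia and neurons were called higher in males, which moved with sex beside every comparison below.

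The lymphocyte genes were present in every library at very low levels. Together they held 2085 counts over the 6 libraries, between 231 in male 3 and 421 in female 1, or 4.4 to 8.56 in CPM of the unscaled library total. Il2rb alone took 38.5% of these counts. Of the 60 values (10 genes in 6 libraries), 51 were under 50 counts. In mean normalised count (CPM after TMM scaling), the members stood between percentile 1.64 (Foxp3) and percentile 28.6 (Il2rb) of the genes tested.

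Per transcript length (TPM, averaged over the 6 libraries), Nkg7 was highest at 1.4 TPM, followed by Il2rb at 0.8, Cd3g at 0.628, Cd79a at 0.549 and Cd3d at 0.381 TPM. Ms4a1 had a mean level of 0.319 TPM, Cd3e of 0.23, Cd4 of 0.228, Cd8a of 0.173 and Foxp3 of 0.0722 TPM. Between neighbours in this order, the step from Cd8a to Foxp3 was the one that exceeded the spread of the log2 ratio over libraries, with Cd8a the higher in 6 of 6 libraries. The other neighbours did not differ beyond that spread.

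Other leukocytes gave far more transcript in the same tissue. Ptprc, which encodes the CD45 protein carried by all leukocytes, had a mean level of 34.7 TPM, 91.1 times that of Cd3d, 63.2 times that of Cd79a and 24.8 times that of Nkg7. Csf1r, the receptor for the macrophage growth factor CSF1, had a mean level of 64.6 TPM, 169 times that of Cd3d and 202 times that of Ms4a1. Lyz2, the lysozyme of macrophages and neutrophils, was 3370 times the Cd3d level, and S100a9, an abundant neutrophil protein, 2570 times. In bulk tissue a low level from few cells and a low level from little RNA per cell cannot be told apart.

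**Figure D1:**
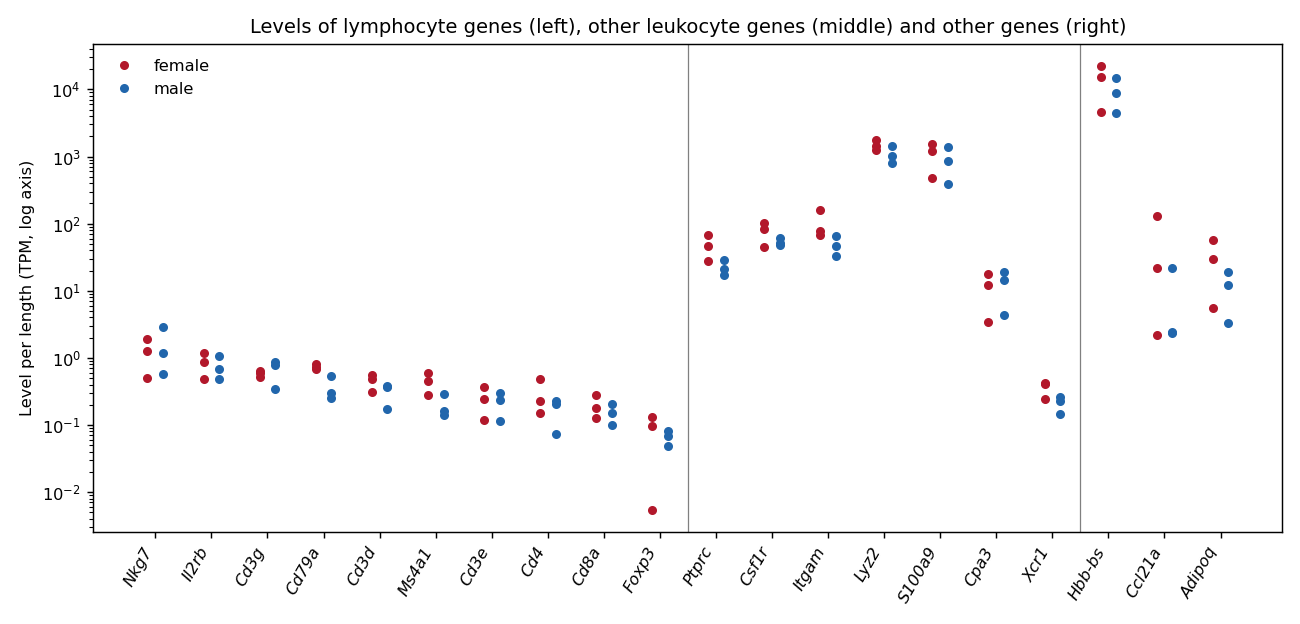
Level per length (TPM, log axis) of the 10 lymphocyte genes at the left, 7 genes of other leukocytes in the middle and 3 genes of other tissues at the right, 1 point per library, females in red and males in blue. The lymphocyte genes lie between 0.00546 and 2.89 TPM, while Ptprc has a mean of 34.7 TPM and Lyz2 of 1290 TPM.

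None of the 10 members differed between the sexes at an adjusted p under 0.1 (edgeR), against 5.3% of all genes tested. At an unadjusted p under 0.05, 1 of the 10 passed, Cd79a, against 20.7% of all genes. By the DESeq2 Wald test 0 members passed an adjusted p under 0.1, against 13.3% of all genes. The median log2 fold change of the members, male minus female, was -0.256, with 8 of 10 lower in males, beside a median of -0.026 over all genes, of which 53.3% were lower in males. The members' median was -0.06 without female 1, -0.17 without female 2, -0.50 without female 3, -0.11 without male 1 and -0.53 without male 2. The normalised counts of the sexes overlapped for 9 of the 10, whereas those of 25.5% of all genes did not overlap. The 95% interval of every member included a 2-fold difference in at least 1 direction, so these data do not exclude differences of that size.

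**Figure D2:**
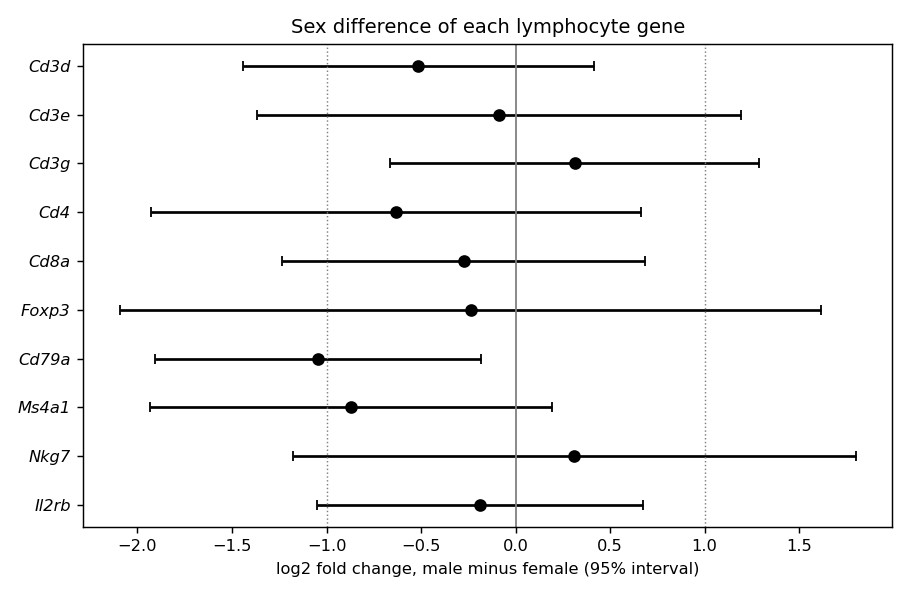
Log2 fold change of each lymphocyte gene, male minus female, with its 95% interval (edgeR, 3 libraries per sex), with dotted lines at a 2-fold difference. The interval of Cd79a, -1.90 to -0.18, is the one that leaves out 0, and the other 9 cross it.

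The CD3 chains carry the signal of the T cell receptor to the inside of the cell. In the GRCm39 assembly their genes lie within 40056 bases of chromosome 9: Cd3g at chr9:44880870-44891735 on the minus strand, Cd3d at chr9:44893083-44899173 on the plus strand and Cd3e at chr9:44910037-44920925 on the minus strand. Cd3g and Cd3d are transcribed away from each other from start sites 1348 bases apart. Their promoters are shown because this pair is divergent. Each runs from 250 bases before to 50 after the start site (RefSeq, GRCm38.p6) and is written in the direction of the gene. Capitals mark GGAAG or its reverse complement CTTCC, the core bound by ETS factors.
Cd3g (chr9:44980382-44980681, minus strand): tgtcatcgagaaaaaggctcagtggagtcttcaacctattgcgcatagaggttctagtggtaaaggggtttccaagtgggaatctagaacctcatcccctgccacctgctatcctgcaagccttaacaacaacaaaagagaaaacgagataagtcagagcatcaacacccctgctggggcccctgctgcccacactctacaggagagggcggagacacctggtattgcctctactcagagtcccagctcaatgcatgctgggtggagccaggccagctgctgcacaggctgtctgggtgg
Cd3d (chr9:44981536-44981835, plus strand): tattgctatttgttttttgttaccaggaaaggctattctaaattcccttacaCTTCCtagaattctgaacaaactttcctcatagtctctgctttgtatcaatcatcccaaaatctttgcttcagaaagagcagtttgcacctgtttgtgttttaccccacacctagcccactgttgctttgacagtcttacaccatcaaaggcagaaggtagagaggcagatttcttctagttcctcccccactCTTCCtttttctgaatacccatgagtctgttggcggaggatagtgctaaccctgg
The window of Cd3d held 2 such matches, that of Cd3g held 0 and that of Cd3e, not printed, held 3. A link between these matches and the levels of the genes was not tested. Searched on both strands, the core was in 71.4% of 32851 promoters of the same length.

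Cd3d was counted 27, 33 and 24 times in females 1 to 3 and 28, 24 and 10 times in males 1 to 3. The highest count was that of female 2 and the lowest that of male 3, and the sexes overlapped. With -0.51 ± 0.40 (SE) on the log2 scale, Cd3d had an adjusted p of 0.505 (edgeR). The log2 fold change was -0.24 without male 3 and -0.67 without female 3.

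Cd3e was counted 16, 11 and 7 times in the females and 14, 15 and 5 times in the males. The sexes overlapped, with male 3 lowest again. The log2 fold change was -0.09 ± 0.55 (SE), and its sign turned without female 1 (0.324) and without male 3 (0.211). Without female 3 it was -0.39. An antisense gene, Gm48719, and a same-strand gene, Gm48720, overlap Cd3e, and both had 0 counts in all 6 libraries.

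Cd3g was counted 21, 21 and 24 times in the females and 37, 37 and 12 times in the males. Males 1 and 2 lay above all females and male 3 below them. This gave a log2 fold change of 0.31 ± 0.42 (SE) and an adjusted p of 0.71 (edgeR). It was 0.06 without male 2, 0.20 without male 1, 0.63 without male 3 and 0.30 without female 3.

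Summed, the 3 chains had normalised counts of 1.25, 1.15 and 0.875 CPM in females 1 to 3 and 1.17, 1.35 and 0.526 CPM in males 1 to 3. Male 3 thus stood lowest for each chain, and the other 5 libraries lay close together. Ptprc was also lowest in male 3, at 53.9 CPM against 66.8 to 157 CPM in the others, and its part in the result was not tested. Variation between libraries of 1 sex was 1.97 (Cd3d) to 2.65 (Cd3g) times counting error, as chi-square per degree of freedom.

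The coreceptor genes both lie on chromosome 6, Cd4 at chr6:124841655-124874758 on the minus strand and Cd8a at chr6:71350411-71356157 on the plus strand. Cd4 was counted 21, 62 and 26 times in the females and 34, 31 and 9 times in the males. Female 2 stood above all other libraries and male 3 below them. Cd4 had a log2 fold change of -0.63 ± 0.56 (SE), with an adjusted p of 0.559 (edgeR). It was -0.001 without female 2 and -0.28 without male 3, and -0.87 without female 3.

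Cd8a, the alpha chain of CD8, was counted 26, 20 and 19 times in the females and 14, 25 and 16 times in the males. The sexes overlapped and the whole range was narrow. The log2 fold change was -0.27 ± 0.41 (SE), or -0.04 without female 1, -0.03 without male 1, -0.55 without male 2 and -0.43 without female 3. Cd8b1, the beta chain of CD8, had 8, 5 and 8 counts in the females and 18, 12 and 15 in the males, with no overlap, and a log2 fold change of 1.04 ± 0.42 (SE) with an adjusted p of 0.219 (edgeR).

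The ratio of Cd8a to Cd4 in TPM was 1.23, 0.373 and 0.815 in females 1 to 3 and 0.485, 0.892 and 2.09 in males 1 to 3. Neither sex stood to 1 side of the other. The log2 ratio was 0.426 higher in males, with an exact two-sided permutation p of 0.6, where 3 against 3 libraries cannot go below 0.1. It turned to -0.048 without female 2 and to -0.13 without male 3, and was 0.515 without female 3.

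**Figure D3:**
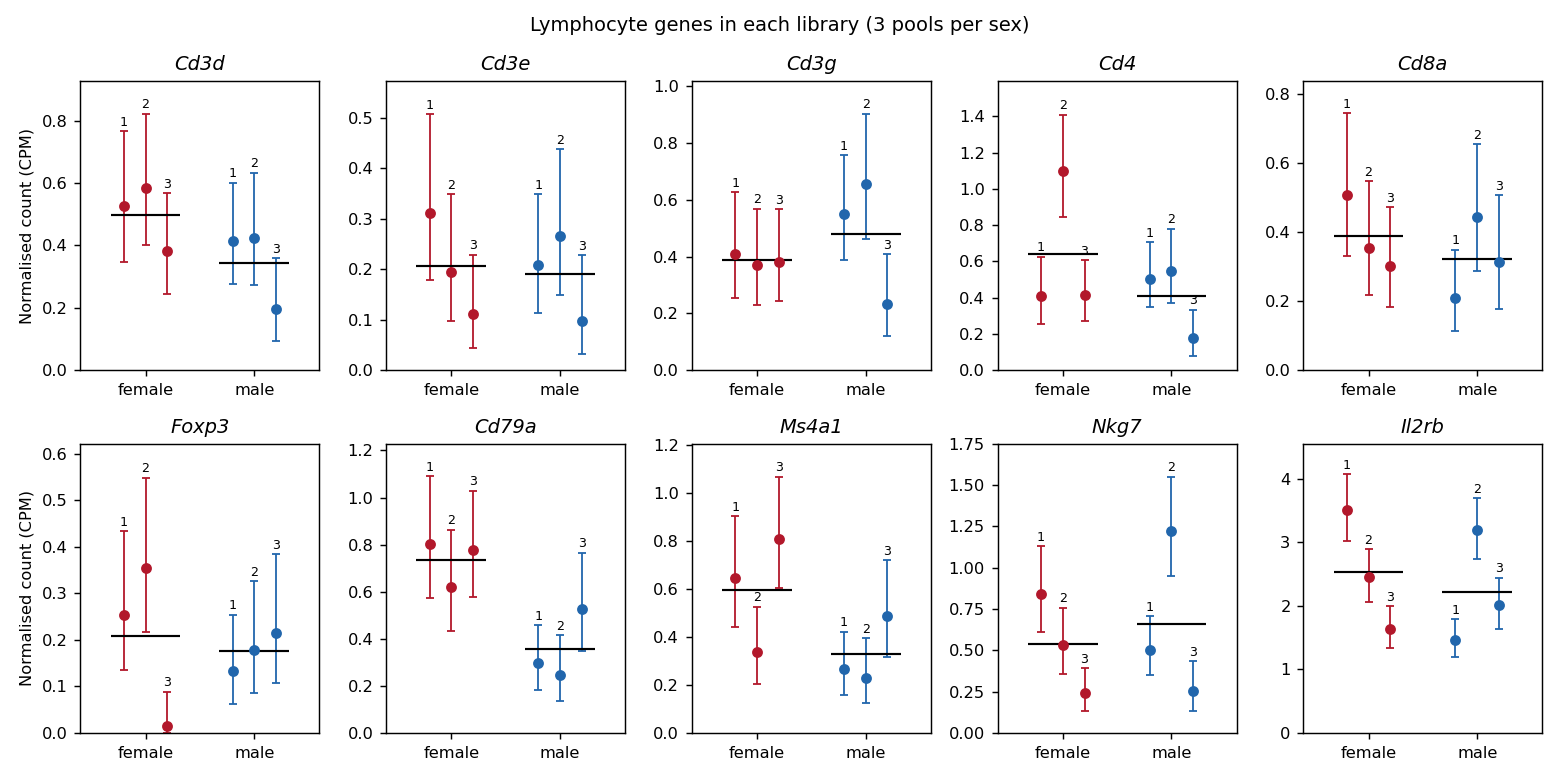
Normalised count (CPM) of each of the 10 lymphocyte genes in each library, numbered by replicate, with exact 95% Poisson intervals (counting error only) and a black line at the mean of each sex. Females (red) and males (blue) overlap for every gene but Cd79a, where the lowest female, 0.62 CPM, is above the highest male, 0.526 CPM.

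Foxp3, the transcription factor of regulatory T cells, lies at chrX:7439883-7461484 on the plus strand. It was counted 13, 20 and 1 times in the females and 9, 10 and 11 times in the males. The males were alike, whereas the females ranged from the lowest to the highest value of all 6. Its log2 fold change was -0.24 ± 0.80 (SE). Without female 3, whose single count is below the floor of 3 counts, it was -0.80 with an adjusted p of 0.327 (edgeR), and without female 2 it was 0.408. Several genes overlap Foxp3, among them the same-strand Flicr, counted 10 to 48 times per library, so the split of reads between them is uncertain.

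The B cell genes had the largest fold changes of the 10 members, and neither passed the threshold. Cd79a encodes a chain of the B cell receptor complex that carries its signal and lies at chr7:24596740-24601622 on the plus strand. Its promoter (RefSeq, GRCm38.p6) is shown with the 1 ETS core in capitals, because this was the member whose groups did not overlap.
Cd79a (chr7:24897247-24897546, plus strand): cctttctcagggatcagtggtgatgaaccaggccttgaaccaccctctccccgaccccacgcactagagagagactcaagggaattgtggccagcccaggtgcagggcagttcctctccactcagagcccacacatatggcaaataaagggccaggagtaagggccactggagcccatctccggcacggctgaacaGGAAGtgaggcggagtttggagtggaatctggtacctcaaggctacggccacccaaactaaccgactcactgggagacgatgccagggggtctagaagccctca
Exact matches to the octamer ATGCAAAT, found on either strand in 1.74% of promoters, were not in this window. The same held for CCCNNGGG, a core bound by EBF factors, found in 13.7%. Inexact matches were not searched for, so sites of these factors may still be present.

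Cd79a was counted 41, 35 and 49 times in females 1 to 3 and 20, 14 and 27 times in males 1 to 3. In normalised counts the females were at 0.801, 0.62 and 0.779 CPM and the males at 0.297, 0.248 and 0.526 CPM. All females lay above all males, a pattern held by 11.6% of all genes tested. The mean was 0.733 ± 0.0984 CPM in females and 0.357 ± 0.149 CPM in males (SD, n = 3 each), 2.06-fold higher in females. On the log2 scale the fold change was -1.04 ± 0.37 (SE), with an adjusted p of 0.175 (edgeR), which misses the threshold. In the later annotation Gm72264, on the same strand, and Gm72234, antisense, overlap Cd79a. Over 16 alternatives the fold change ranged from -1.42 to -0.81, with a smallest adjusted p of 0.156 (limma-voom). Without female 3 it was -0.99, with an adjusted p of 0.207 (edgeR).

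Ms4a1, which encodes the B cell surface protein CD20, lies at chr19:11227039-11243605 on the minus strand. It was counted 33, 19 and 51 times in the females and 18, 13 and 25 times in the males. Females 1 and 3 lay above all males, while female 2, at 0.337 CPM, lay below male 3, at 0.487 CPM. The log2 fold change was -0.87 ± 0.46 (SE), with an adjusted p of 0.323 (edgeR), and without female 3 it was -0.58. The antisense gene 4930526L06Rik covers the whole of Ms4a1 and had 10 to 19 counts per library. The kit keeps strand, but the strand setting of the quantification is not given in the sources used here.

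The levels of both B cell genes were then read beside those of other cells in each library. Together they had 1.45, 0.957 and 1.59 CPM in females 1 to 3 and 0.564, 0.479 and 1.01 CPM in males 1 to 3. Female 3, female 1 and male 3 were the 3 highest libraries, and the same 3 were highest for red cell genes. Alas2, the first enzyme of haem synthesis in red cell precursors, had 118, 20.5 and 148 CPM in the females and 57.6, 25.5 and 110 CPM in the males. The summed level of the 5 red cell genes was 10500 to 51600 TPM in females and 11200 to 35600 TPM in males, with 0 of 5 called. Ccl21a, a chemokine of lymph node stroma and lymphatic vessels, had 3950, 70 and 863 counts in the females and 95, 75 and 641 counts in the males. The summed level of the 5 lymph node stroma genes was 43.5 to 166 TPM in females and 27.9 to 61.3 TPM in males, while its defining genes Madcam1 and Glycam1 had at most 5 and 6 counts. The part of these genes in the B cell result was not tested.

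The same 3 libraries were highest in CPM for 5 of the 12 tested genes of the B cell and plasma cell list (Pax5, Ighd and Igkc among them) and not for the other 7, Cd22, Cd37 and Cd79b among them. Pax5, the transcription factor that fixes B cell identity, had 14, 3 and 44 counts in the females and 11, 13 and 23 in the males. Ighd, the heavy chain of IgD, had 42, 19 and 81 counts in the females and 46, 35 and 65 in the males. Igkc, the kappa light chain, had 35, 14 and 74 counts in the females and 33, 26 and 54 in the males. Their log2 fold changes were -0.32 for Pax5, 0.06 for Ighd and -0.09 for Igkc, and none was called. Pax5, Ighd and Igkc were chosen after their values were seen. The share of all genes tested that were highest in the same 3 libraries was not determined.

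**Figure D4:**
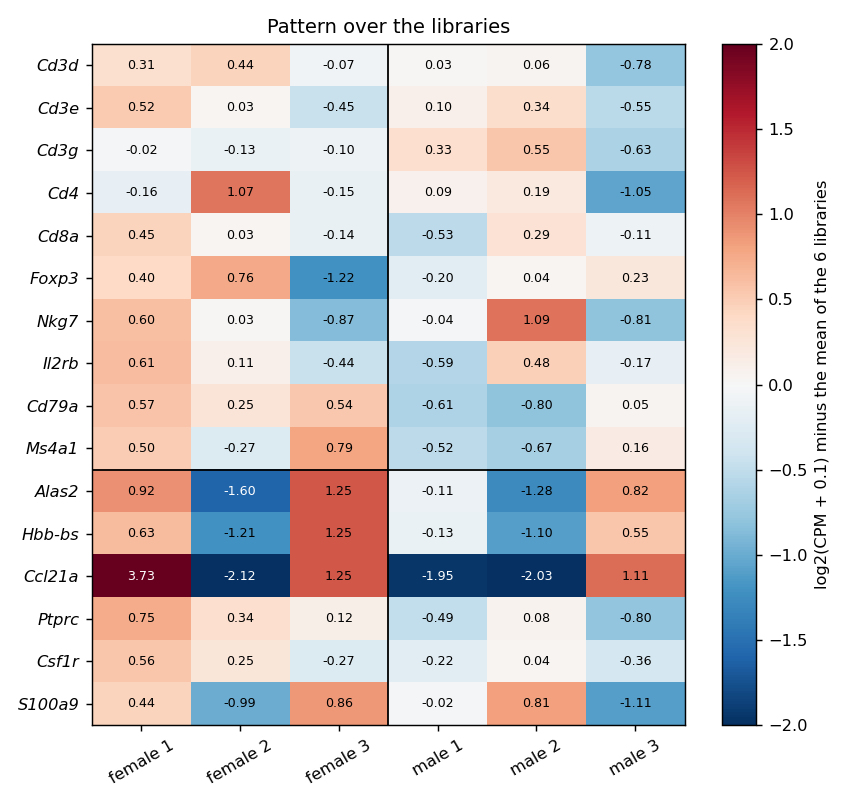
Log2(CPM + 0.1) of each gene minus its mean over the 6 libraries, for the 10 lymphocyte genes (above the line) and 6 genes of other cells, with colours ending at 2 and -2. Cd79a and Ms4a1 are above their mean in females 1 and 3 and male 3, as Alas2, Hbb-bs and Ccl21a are, but in female 2 Cd79a is above its mean (0.25) and these 3 are below theirs. Cd3d, Cd3e, Cd3g and Cd4 are lowest in male 3.

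Nkg7 encodes a protein of the granules of NK cells and cytotoxic T cells and lies at chr7:43086497-43087678 on the plus strand. It was counted 43, 30 and 15 times in the females and 34, 69 and 13 times in the males. Female 3 and male 3 were lowest, and male 2 was highest by far. Its log2 fold change was 0.31 ± 0.64 (SE), and its sign turned without female 3 (-0.049) and without male 2 (-0.446). Within a sex, chi-square per degree of freedom against counting error was 15.5.

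Il2rb, the receptor chain shared by interleukin-2 and interleukin-15, lies at chr15:78363456-78395566 on the minus strand. It was counted 180, 138 and 103 times in the females and 99, 180 and 103 times in the males. Female 1 and male 2 were highest, and the sexes spanned almost the same range. The mean was 2.53 ± 0.942 CPM in females and 2.22 ± 0.88 CPM in males (SD, n = 3 each), with a log2 fold change of -0.19 ± 0.37 (SE). It was 0.119 without female 1, 0.04 without male 1 and -0.42 without female 3. The antisense gene Gm62993 of the later annotation overlaps Il2rb. Chi-square per degree of freedom within a sex was 20.7, the highest of the 10 members, but this ratio of variances grows with the count. The SD of Il2rb was 37.2% of its mean in females and 39.6% in males, against 56.0% and 76.2% for Nkg7.

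Ptprc itself did not pass the threshold. Its females averaged 126 ± 28.4 CPM and its males 73.1 ± 23.1 CPM (SD, n = 3 each) without overlap, with a log2 fold change of -0.78 ± 0.24 (SE) and an adjusted p of 0.139 (edgeR). Relative to Ptprc, in TPM, Cd3e was at 0.43% to 0.544% in females and 0.673% to 1.12% in males. Nkg7 was at 1.81% to 2.84% of Ptprc in females and 3.34% to 10.1% in males. In TPM the sexes did not overlap for these 2 ratios. For Cd3d (0.711% to 1.23% and 1.03% to 1.77%), Cd79a (1.2% to 2.63% and 0.878% to 3.17%) and Ms4a1 (0.6% to 1.66% and 0.485% to 1.73%) they did. With counts in place of TPM, the sexes overlapped for Cd3e and Nkg7 too. Female 1 had 16 Cd3e, 43 Nkg7 and 8039 Ptprc counts, and male 3 had 5, 13 and 2762. These ratios were chosen after values were seen and were not tested. By their TPM in each library, Cd3g, Cd8a and Il2rb also stood higher relative to Ptprc in every male than in any female. In counts this held for Cd3g, while the sexes overlapped for Cd8a and Il2rb. Female 1 had 26 Cd8a, 180 Il2rb and 8039 Ptprc counts, and male 1 had 14, 99 and 4500. Ptprc itself overlapped in TPM, with 27.4 in female 3 and 28.7 in male 2. Separation in TPM was thus not particular to Cd3e and Nkg7 and depended on the unit. Its share over all genes was not determined. The 6 pan-leukocyte genes had a summed level of 844 to 1210 TPM in females and 540 to 1130 TPM in males, with 0 of 6 called.

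Several members were spread over more than 1 transcript. Of 37 transcripts listed for the 10 genes, 19 had any count and 15 held at least 5% of their gene's counts. Exon 4 of 5 of Cd8a, at chr6:71352872-71352902 in GRCm39, is present in transcript Cd8a-201 and absent from Cd8a-202. It is shown in capitals between its neighbouring exons, as the coding difference between the 2 forms, which also differ in length at their ends.
Cd8a-201 transcript: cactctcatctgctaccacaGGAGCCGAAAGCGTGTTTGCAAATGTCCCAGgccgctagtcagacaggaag
Cd8a-202 transcript: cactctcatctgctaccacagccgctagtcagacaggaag
Cd8a-202 had 19.4, 0 and 0 estimated counts in females 1 to 3 and 14, 17.4 and 16 in males 1 to 3. Cd8a-201 had 4.8, 20 and 19 in the females and 0, 7.6 and 0 in the males. Each library thus placed most of its Cd8a counts on 1 of the 2 forms. No library had over 26 Cd8a counts, and no test of transcript use was made.

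Exon 3 of 4 of Nkg7, at chr7:43087199-43087333 in GRCm39, is lacking in transcript Nkg7-203. That transcript received 6.9 estimated counts in male 1 and 14.5 in male 2, and 0 in the other 4 libraries. Foxp3-203 took all 19.9 estimated counts of female 2 and 0 in the other libraries, where another coding transcript took all counts. For Ms4a1, 51.0% of the counts were placed on a coding transcript and 49.0% on one that retains an intron. The coding form had 13.4, 7.3 and 27.3 estimated counts in the females and 13.2, 2.2 and 18.1 in the males. The form that retains an intron had 19.8, 11.8 and 24.1 in the females and 4.9, 10.6 and 7.0 in the males.

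**Figure D5:**
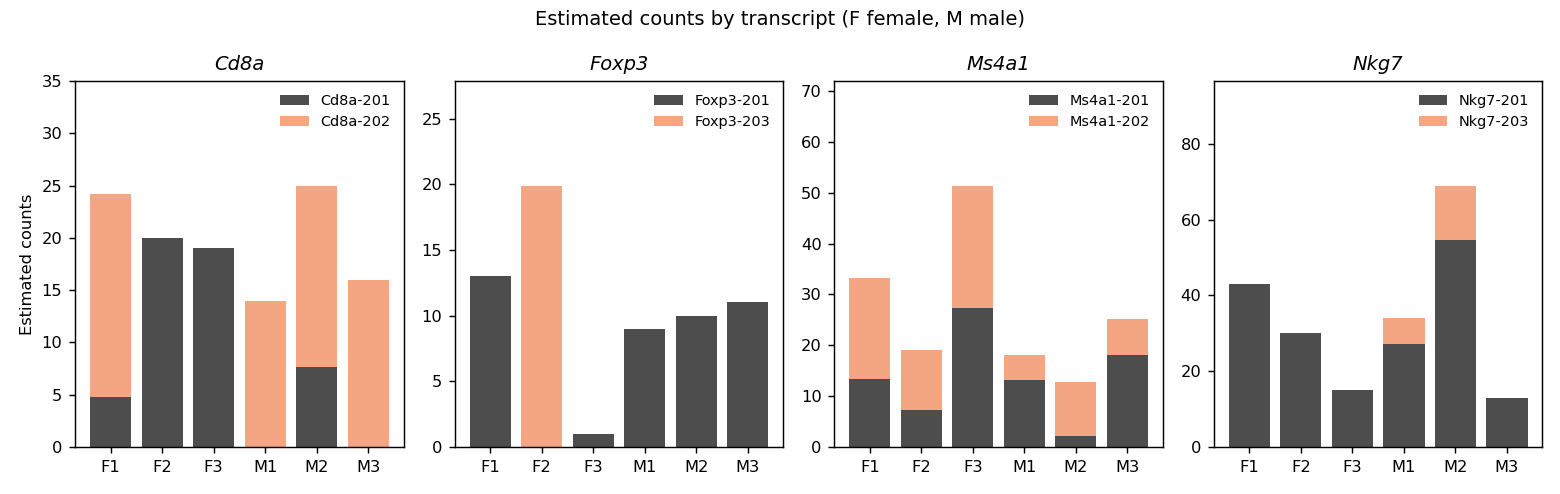
Estimated counts of the transcripts that hold at least 5% of the counts of Cd8a, Foxp3, Ms4a1 and Nkg7, stacked by library (F female, M male, 1 to 3). Females 2 and 3 have all their Cd8a counts on the Cd8a-201 form, while males 1 and 3 have all of theirs on Cd8a-202.

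Other genes of the same pathways were read from 5 lists of 88 genes, 72 of them tested. Of these 72, 1 (1.39%) was called, against 5.3% of all genes. That gene was Jak1, a kinase that signals for many cytokine receptors besides that of interleukin-2, with means of 210 ± 31.5 CPM for females and 143 ± 8.0 CPM for males (SD, n = 3 each). Its log2 fold change was -0.56 ± 0.13 (SE), with an adjusted p of 0.0837 (edgeR). The median log2 fold change of the 72 genes was -0.068, with 39 lower in males.

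In the list of T cell receptor and signalling genes, 0 of 18 tested genes were called. Of the 18, 11 were lower and 7 higher in males, with a median log2 fold change of -0.114. Among those tested, Cd8b1, given above, had the smallest p and was higher in males. Themis, Cd5 and Sh2d1a fell below the count filter. Themis had 8, 10 and 9 counts in the females and 1, 2 and 3 in the males. Cd5 had 13, 9 and 14 in the females and 7, 8 and 5 in the males. In CPM the sexes did not overlap for Themis and Cd5 and overlapped for Sh2d1a. Lcp2, an adaptor used by T cells and by myeloid cells, had a log2 fold change of -0.61 with an adjusted p of 0.278 (edgeR). In the list of T cell state and transcription, 0 of 17 were called, with 10 lower and 7 higher in males and a median of -0.147. Il7r, the interleukin-7 receptor, had a log2 fold change of -0.84 with an adjusted p of 0.228 (edgeR), and Ikzf3, a lymphoid transcription factor, one of -0.81 with an adjusted p of 0.28 (edgeR). Cd40lg, the helper T cell ligand of CD40, had at most 3 counts in every library.

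In the B cell and plasma cell list, 0 of 12 were called, with a median of -0.199. Cd22, an inhibitory receptor of B cells, had 150, 123 and 117 counts in the females and 70, 94 and 81 in the males, with no overlap and an adjusted p of 0.214 (edgeR). Cd37, a tetraspanin of B cells and other leukocytes, had a log2 fold change of -0.67 with an adjusted p of 0.26 (edgeR).

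In the NK and cytotoxic list, 0 of 15 were called, with a median of 0.041. Of the 15, 11 were higher and 4 lower in males, and the 2 with the smallest p were both among the lower ones. Il18rap, an interleukin-18 receptor chain, had a log2 fold change of -0.82 with an adjusted p of 0.273 (edgeR). Cd226, an activating receptor, had one of -0.85 with an adjusted p of 0.252 (edgeR), and its sexes did not overlap. Ifng and Cd160 had at most 3 counts in every library. Of 10 tested genes of the interleukin-2 and interleukin-15 receptor pathway, Jak1 was called, and Jak3 (-0.57, adjusted p of 0.195, edgeR) and Il15ra (-0.39, adjusted p of 0.424, edgeR) were not. Il2, the growth factor made by activated T cells, had 0 counts in all 6 libraries.

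Myeloid lists were read beside these. The 10 macrophage and monocyte genes had a median log2 fold change of -0.396, the 7 neutrophil genes one of -0.523 and the 7 dendritic cell genes one of -0.218, with 0 called in each list. Of the lists for other tissue, 0 of 5 mast cell genes (median log2 fold change of 0.542), 0 of 5 tested adipocyte genes (median of -1.534) and 1 of 6 skeletal muscle genes (Myh4, higher in females, median of -0.538) were called. The part of these tissues in the members' values was not tested. Of 6 genes of immature lymphocytes, 2 were tested and 0 called, and Rag2 and Igll1 had at most 3 counts in every library.

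Genes outside all lists were ranked by how closely their pattern over the 6 libraries followed that of the lymphocyte genes, as the root mean square distance of centred log2(CPM + 0.1) among 13387 protein-coding genes. Closest to the mean of Cd3d, Cd3e and Cd3g were Mcub (0.119), Pbld1 (0.126), Mfng (0.127), Tnfsf9 (0.127) and Pkmyt1 (0.134), where the median distance was 0.377. Closest to the mean of Cd79a and Ms4a1 were Epb41 (0.121), Nav3 (0.229), Drc3 (0.255), Pcdhb12 (0.262) and Nusap1 (0.272), where the median distance was 0.543. Epb41, a protein of the red cell membrane skeleton that other cells also make, had 51.4, 29.4 and 45.8 CPM in the females and 23.7, 21.0 and 35.2 CPM in the males. With 6 libraries such rankings describe these libraries and carry no test.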

How the data were processed

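Poly-A RNA of 3 female and 3 male axotomy libraries was sequenced from a stranded kit. The submitters' processing notes name Trimmomatic 0.39, Salmon 1.5.2 and MultiQC 1.9. The authors deposited, per transcript, estimated counts, which are not normalised, and TPM, which is scaled by effective length and library. Salmon splits reads shared by several transcripts, so overlapping genes can exchange counts.

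Counts were summed per gene symbol (93 symbols join several identifiers) and rounded. In R 4.3.3, edgeR 4.0.16 was used with filterByExpr, TMM scaling and the quasi-likelihood test, with sex as the only term, over all genes, and the script was tested on simulated data. Fold changes are male minus female. P-values measure the spread between pools. DESeq2 1.42.0 and limma 3.58.1 served as alternatives, beside other filters, scalings, a length offset and leaving out each library. Poisson intervals and the floor of 3 counts cover counting error only. Positions came from GENCODE M39 (GRCm39), a later release than that of the files, and promoters from RefSeq (GRCm38.p6); 7 of the 10 members matched a promoter.

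The members and lists were chosen with earlier results of these data known. Named were all members, the called genes of each pathway list or otherwise the 2 with the smallest p, the 5 nearest patterns, and transcripts with at least 5% of a member's counts. The lists for other cells are given mainly by their counts, and 1 of them is not reported here.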

Additional observations from a re-analysis of the deposited data

How the results depend on the processing

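No member was called under any of the 16 alternatives. The alternative at an adjusted p under 0.05 reuses the main fit with a stricter threshold, so it could not call a member. The number of genes called over the whole table, 975, became 2440 with the DESeq2 Wald test, 1614 with no filter on low counts, 279 at an adjusted p under 0.05 and 56 with the replicate number as a block. Leaving out 1 library gave 1 to 2609 genes: 1 without female 1, 325 without female 2, 2609 without female 3, 643 without male 1 and 7 without male 3. Same-numbered libraries did not deviate together (correlations of -0.304 to -0.039 for 3 pairs, against -0.142 to 0.395 for 6 pairs of different number). No pairing by number was thus seen, but so few pairs cannot exclude a weak one. The log2 fold change of Foxp3 turned sign with limma-voom (0.499) and with the replicate block (0.037). Leaving out 1 library turned the sign of 4 members and of the Cd8a to Cd4 ratio. Foxp3 then ranged from -0.802 to 0.408 (turned without female 2), Cd3e from -0.394 to 0.324 (without female 1, and 0.211 without male 3), Nkg7 from -0.446 to 0.779 (without male 2, and -0.049 without female 3) and Il2rb from -0.506 to 0.119 (without female 1, and 0.04 without male 1). The log2 ratio ranged from -0.13 to 0.923 (turned without male 3, and -0.048 without female 2). The other 151 values of single members, among them the repeated ones of the main fit, kept their sign and their side of the threshold. The cause of these changes was not tested. Of 60 member values, 51 were under 50 counts. Chi-square per degree of freedom between libraries of 1 sex, a ratio of variances, was 1.97 to 20.7.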

Other observations

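Trdc, the constant part of the delta chain of the gamma-delta T cell receptor, did not follow the CD3 genes. It had 56, 71 and 513 counts in females 1 to 3 and 146, 267 and 101 counts in males 1 to 3, with the highest count in female 3, where Cd3e had 7 and Foxp3 had 1. Its log2 fold change was -0.25 ± 0.77 (SE), with an adjusted p of 0.88 (edgeR). Trac, the constant part of the alpha chain, was even by comparison, with 55, 92 and 75 counts in the females and 112, 83 and 93 in the males. Both genes were chosen after their values were seen.

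Of 15 tested genes of the NK and cytotoxic list, 5 (Ncr1, Klrc2, Gzmb, Prf1 and Ccl5) had their lowest CPM in female 3 and male 3, and 10 did not, Il18rap, Eomes and Klrd1 among them. Ncr1, an activating receptor of NK cells, had 22, 25 and 7 counts in the females and 27, 25 and 4 in the males, and Prf1, the pore-forming protein of cytotoxic granules, 19, 23 and 8 in the females and 22, 30 and 9 in the males. Nkg7 was also lowest in these 2 libraries, whereas Il2rb was lowest in male 1. These genes were chosen after their values were seen, and no test was made. The share of all genes tested that were lowest in these 2 libraries was not determined.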
